A study of Arabidopsis thaliana with 18 samples.

Results

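The Aux/IAA repressors and the auxin response factors (ARFs) of Arabidopsis thaliana were followed through one light treatment in 3 genotypes. Members were chosen by gene identifier and not by a cutoff on expression, though with earlier results of these data known. They comprise 29 Aux/IAA genes and 15 ARF genes, or 44 of the 37336 genes in the count tables. All 44 passed the filter on low counts (at least 10 counts in at least 2 libraries).

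Auxin response is set by these families. In the absence of auxin, an Aux/IAA protein binds an ARF at the promoter of an auxin-responsive gene and recruits a TOPLESS co-repressor. Auxin joins the Aux/IAA to a TIR1/AFB F-box receptor through a short degron, the repressor is destroyed and the ARF is freed. Most Aux/IAA genes are themselves induced by auxin, which forms a feedback loop, and in the shoot apex ARF5 (MONOPTEROS) promotes the initiation of flowers.

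All plants were in the Col-0 background, were 42 days old and had grown in short days. They were ft-10 mutants (ft, lacking the florigen FLOWERING LOCUS T), the wild type, and tfl1-1 mutants (tfl1, a severe allele of TERMINAL FLOWER 1, which opposes florigen). Each genotype was harvested untreated or after a single 24 h photoperiod enriched in far-red light (FRP), a treatment that induces FT in leaves. RNA from shoots freed of leaves and roots was sequenced, with 3 biological replicates in each of the 6 conditions. Untreated plants remained in short days over the same 24 h.

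The sequences below define groups of members whose responses are given later, and a link between sequence and response was not tested. All sequences come from the RefSeq TAIR10.1 genome. The degron core of an Aux/IAA is Gly-Trp-Pro-Pro, searched as these 4 codons with any final base in the codons of Gly and Pro. This core was found in 23 of the 29 Aux/IAA coding sequences, here called canonical. IAA31 differs in the first codon, and no match lies in IAA20, IAA30, IAA32, IAA33 or IAA34. The core codons are in capitals, with 2 codons on each side, for the 3 canonical genes that changed most or in opposite directions and for IAA31.
IAA1 (core at chr4:8361445-8361456, plus strand): atcgttGGATGGCCTCCAgtgaga
IAA19 (core at chr3:5264316-5264327, plus strand): gtggtgGGGTGGCCACCGgtttgt
IAA29 (core at chr4:15583951-15583962, plus strand): gttgttGGATGGCCACCAgtaaaa
IAA31 (core at chr3:6020794-6020805, minus strand): agacaaGATTGGCCACCGataaag

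A pair of microRNAs divides the ARFs. miR160 is complementary to the class C members ARF10, ARF16 and ARF17, and miR167 to ARF6 and ARF8. The mature microRNAs are shown with their seed (bases 2 to 8) in capitals. In each target site, capitals mark bases that differ from the exact complement of the microRNA. A G-U pair is thus in capitals and counts as a mismatch here. All 5 sites lie in coding exons.
miR160a-5p (chr2:16340282-16340302, plus strand): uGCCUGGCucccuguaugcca
ARF17 site (chr1:29274189-29274209, plus strand): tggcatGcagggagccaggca
ARF10 site (chr2:12115741-12115761, plus strand): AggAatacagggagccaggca
ARF16 site (chr4:14704141-14704161, minus strand): GggTTtacagggagccaggca
miR167a-5p (chr3:8108090-8108110, plus strand): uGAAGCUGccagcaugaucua
ARF8 site (chr5:14633841-14633861, plus strand): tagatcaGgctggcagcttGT
ARF6 site (chr1:10686478-10686498, minus strand): GagatcaGgctggcagcttGT
The sites of ARF17, ARF10 and ARF16 hold 1, 2 and 3 mismatches to miR160, and those of ARF8 and ARF6 hold 3 and 4 to miR167. Every other ARF had more than 4 mismatches to either microRNA at its best position.

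The libraries held 20470477 to 35851716 counts on genes. The authors kept 12 of the 18 libraries, 2 per condition, after a principal component analysis, and their labels mark this set. It is used first here, so the spread between replicates is that of selected libraries, with a biological coefficient of variation of 0.0738 against 0.161 in all 18. Untreated wild-type replicate 1, outside the 12, stood apart. Its highest Spearman correlation with a replicate of its own condition was 0.936, against 0.979 with untreated ft replicate 2. Long and short genes also moved apart between libraries. The slope of log2 CPM (counts scaled by TMM to a common library size) on log2 transcript length was 0.0819, -0.343 and -0.359 in untreated wild type and 0.282, 0.306 and 0.281 after FRP. FT had 11 to 36 counts in the 6 ft libraries and 0 to 3 in the other 12, and TFL1 had 172 to 1647 counts in tfl1 and 66 to 451 elsewhere. Counts over a whole gene do not test these alleles, and the labels were used as given.

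Upon FRP treatment of the wild type, most Aux/IAA transcripts fell and most ARF transcripts rose. By the edgeR quasi-likelihood test on the 12 libraries (adjusted p at most 0.005), 21 of 29 Aux/IAA genes fell and 1 rose, where 33.4% of all tested genes fell and 33.0% rose. The median log2 fold change of the Aux/IAA genes was -0.82, beside -0.02 for all genes. Of the 15 ARF genes 11 rose and 1 fell, and their median was 0.89. In these bulk samples fewer cells of a type and less RNA per cell cannot be told apart. With all 18 libraries, 17 Aux/IAA genes fell and 1 rose, where 28.1% and 24.5% of genes did, and 10 ARF genes rose and 1 fell.

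**Figure D1:**
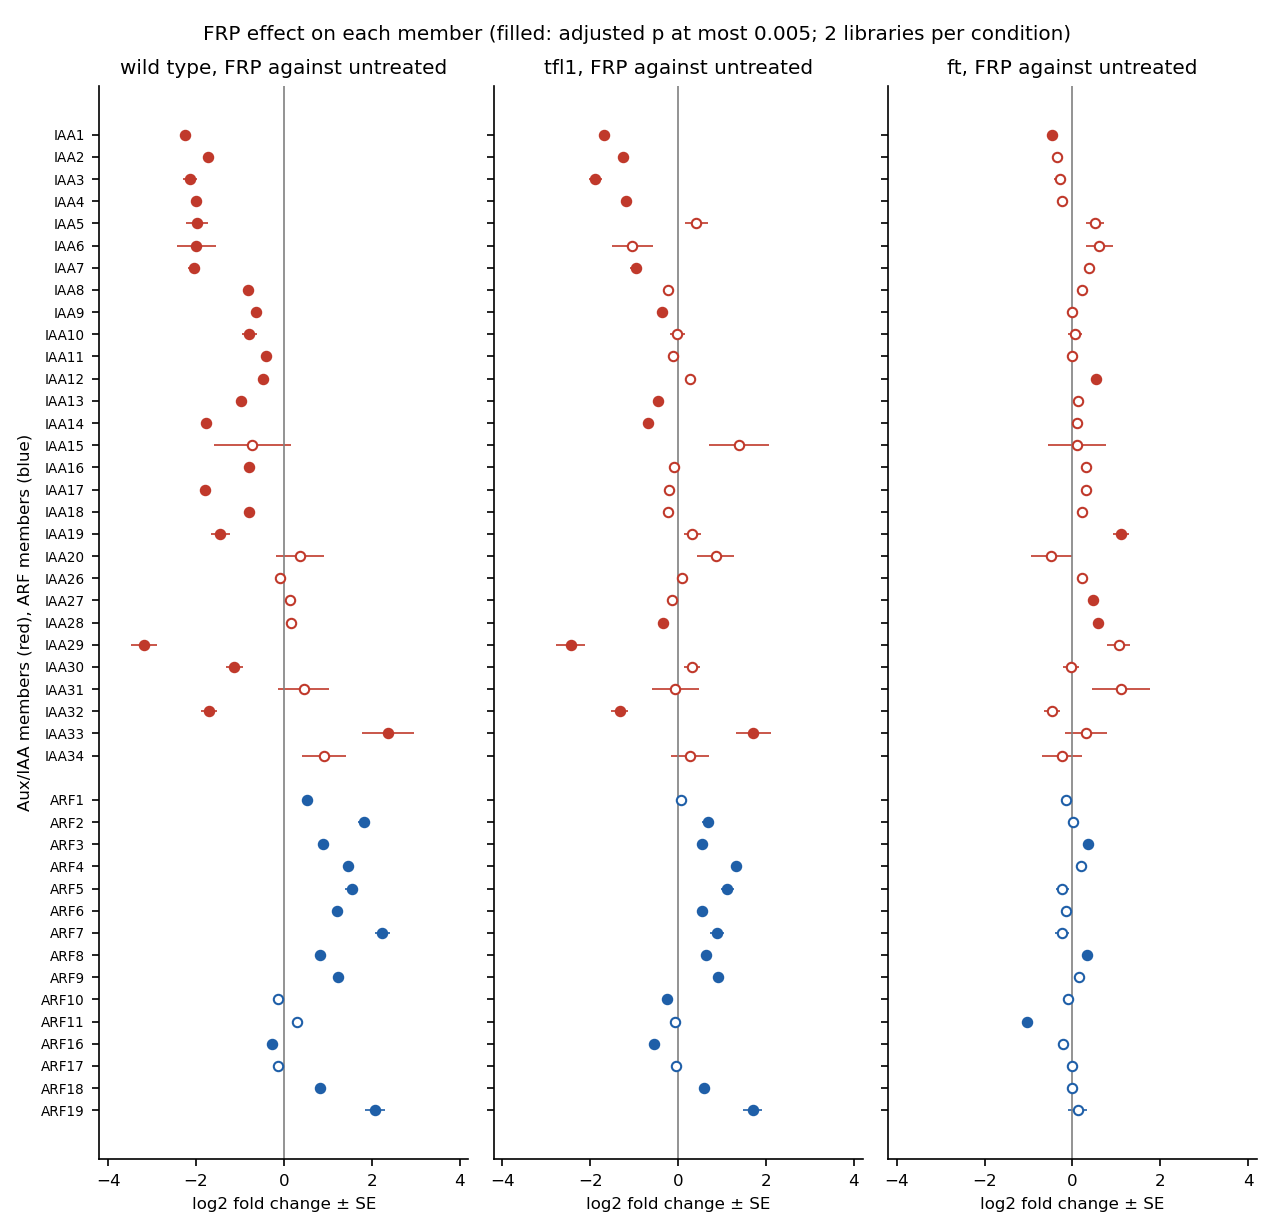
Log2 fold change ± SE of each of the 44 members upon FRP in wild type, tfl1 and ft (Aux/IAA red, ARF blue; filled points passed the adjusted p of 0.005; 2 libraries per condition). In the wild type 21 of 29 Aux/IAA genes lie to the left as filled points and 11 of 15 ARF genes to the right, and in ft 5 and 3 points are filled.

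The families differ in transcript length, and so do not sample the same part of the length trend. Exonic length ran from 759 to 2222 bases in the Aux/IAA genes (median 1355) and from 2514 to 4432 in the ARF genes (median 2998). For all wild-type genes, the median log2 fold change was -0.83 in the shortest 10% of genes and 1.41 in the longest 10%. Over the 13523 genes within the length range of the Aux/IAA genes, 43.2% fell and the median was -0.28. The Aux/IAA share of 72.4% and median of -0.82 lay beyond these genes. The 10% bins with median lengths of 1217 and 1432 bases, on either side of the Aux/IAA median length, had medians of -0.51 and -0.34. Over the 3877 genes within the range of the ARF genes, 71.9% rose with a median of 0.93, and the ARF share of 73.3% with a median of 0.89 lay close to them. The length trend cannot be told apart from a response of long genes in these files.

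**Figure D2:**
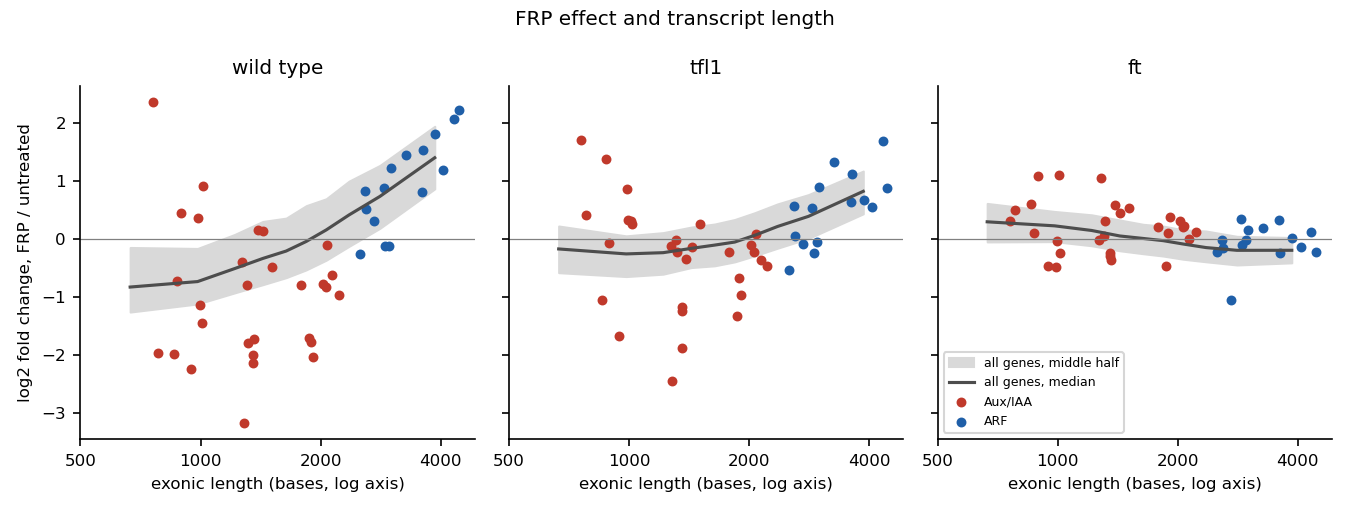
Log2 fold change upon FRP against exonic length (log axis, bases) for Aux/IAA (red) and ARF (blue) members, with the median (line) and the middle 50% (band) of all genes in bins of length that each hold 10% of them. In the wild type most ARF genes follow the line, which reaches 1.41 in the longest bin, while most Aux/IAA genes lie below it.

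With the trend on length removed from each library, 17 Aux/IAA genes still fell in the wild type and 3 rose (IAA27, IAA28 and IAA33), with 29.4% and 28.2% of all genes called in those directions. Their median was -0.87. For the ARF genes the picture changed, with 7 called higher, 4 lower and a median of 0.18 beside 0.08 for genes of their length.

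**Figure D3:**
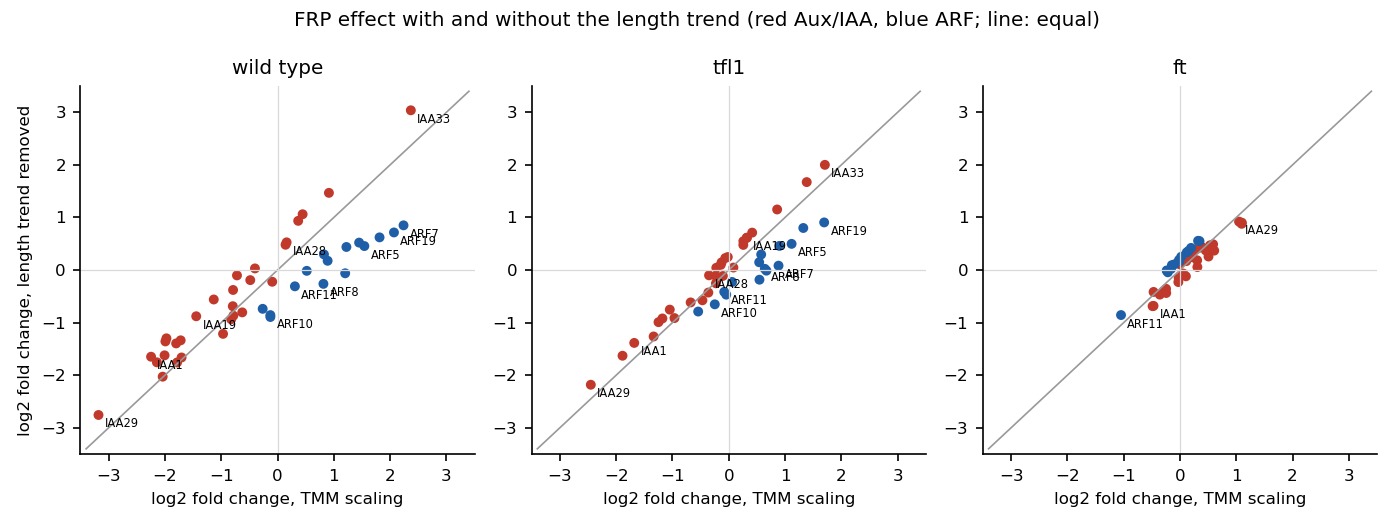
Log2 fold change of each member upon FRP after the length trend was removed (vertical) against the value with TMM scaling alone (horizontal), with the line of equal values, for the 3 genotypes. For the wild type, Aux/IAA genes (red) stay near the line, from IAA29 at -3.18 and -2.76, while ARF genes (blue) drop towards 0, with ARF7 going from 2.24 to 0.85.

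Marker genes for other cells moved with FRP as well. The summed level of 6 leaf photosynthesis genes went from between 4960 and 6544 CPM to between 1191 and 1939 CPM in the wild type, with all 6 called lower. In tfl1 the sum went from 5893 to 6452 CPM down to 1427 to 1780 CPM, again with 6 of 6 lower, and in ft from 5455 to 5747 CPM to 3683 to 4161 CPM, with LHCA3 alone called. The summed level of 6 shoot meristem genes went from 218 to 261 CPM to 448 to 545 CPM in the wild type, from 266 to 279 CPM to 467 to 546 CPM in tfl1 and from 225 to 230 CPM to 423 to 443 CPM in ft, mostly through STM and KNAT1. The stem cell gene CLV3 went the other way in the wild type, from 10, 11 and 13 counts to 3, 1 and 3. The summed level of 7 root genes went from 382 to 479 CPM to 184 to 230 CPM in the wild type, from 338 to 366 CPM to 284 to 328 CPM in tfl1 and from 390 to 408 CPM to 306 to 338 CPM in ft, mostly through PYK10, with SCR and GL2 next, while the root hair genes COBL9, EXPA7 and RSL4 had at most 0.0912 CPM. The 4 floral organ genes summed to 0.0955 to 0.348 CPM in untreated and 0.573 to 0.824 CPM in treated wild type, most of it PI, to 0.197 to 0.424 against 0.605 to 0.993 CPM in tfl1 and to 0.0972 to 0.264 against 0.212 to 0.449 CPM in ft, with AP3 and AG at or below 0.175 CPM. The part of leaf, meristem, root and floral tissue in the changes of the auxin genes was not tested.

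IAA29 (AT4G32280), a shade-responsive member, showed the strongest decrease. It measured 1.48, 6.47 and 3.86 CPM in untreated wild-type replicates 1 to 3 and 0.659, 0.764 and 0.498 CPM after FRP. In tfl1 it went from 2.45, 2.12 and 1.97 CPM to 0.409, 0.495 and 0.395 CPM. Treated and untreated libraries did not overlap in either genotype, but the untreated wild-type libraries spread widely. The fitted log2 fold changes were -3.18 ± 0.30 (adjusted p = 1.28e-06) in wild type and -2.45 ± 0.33 (adjusted p = 5.5e-05) in tfl1, and with all 18 libraries it was -2.65 in the wild type. In ft the direction was the opposite, from 1.39, 1.49 and 1.20 CPM to 2.84, 2.004 and 2.72 CPM, again without overlap, although the log2 fold change of 1.05 ± 0.26 missed the threshold (adjusted p = 0.00688).

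IAA1 (AT4G14560) and IAA3 (AT1G04240, SHY2), auxin-inducible repressors, fell in wild type and tfl1. IAA1 measured 31.6, 24.9 and 27.4 CPM in untreated and 5.89, 6.78 and 5.14 CPM in treated wild type, and 21.5, 18.02 and 21.4 CPM against 7.19, 8.22 and 6.20 CPM in tfl1. On the log2 scale IAA1 fell by -2.25 ± 0.10 in wild type (adjusted p = 1.07e-08) and by -1.68 ± 0.09 in tfl1 (adjusted p = 9.57e-08). IAA1 was also the only member of its family called lower in ft, by -0.47 ± 0.09 (adjusted p = 0.00121), from 22.1, 21.6 and 21.9 CPM to 16.0, 12.8 and 15.4 CPM. IAA3 measured 42.4, 67.1 and 51.0 CPM in untreated and 10.96, 17.05 and 15.6 CPM in treated wild type, a log2 fold change of -2.14 ± 0.15 (adjusted p = 1.81e-07). In tfl1 it went from 52.1, 46.3 and 48.6 CPM to 14.2, 15.3 and 12.99 CPM (-1.89 ± 0.15, adjusted p = 1.15e-06), and in ft the fold change was -0.28 ± 0.14 (adjusted p = 0.122). No treated library of IAA1 or IAA3 overlapped an untreated one in any genotype. A gene on the other strand covers 39.6% of the exonic bases of IAA3, and the unstranded counts cannot separate the transcripts.

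Other canonical members lost between a little and most of their transcript in the wild type. The auxin-inducible IAA2 and IAA4 fell by 1.72 and 2.01 on the log2 scale, and IAA7 (AXR2) and IAA14 (SLR), whose stabilizing mutations block root auxin responses, fell by 2.04 and 1.78. IAA17 (AT1G04250, AXR3) went from 14.6, 33.8 and 30.3 CPM to 9.56, 9.26 and 8.89 CPM in the wild type, without overlap. The log2 change was -1.80 ± 0.09 there (adjusted p = 2.28e-08), against -0.22 ± 0.09 in tfl1 (adjusted p = 0.0451). In tfl1 11 Aux/IAA genes fell and 1 rose, where 21.5% of genes fell and 24.6% rose. The family median was -0.22 beside -0.13 for genes of the same length range. The 10% bins of genes with median lengths of 1217 and 1432 bases had medians of -0.24 and -0.16, so the family median lay close to genes of its median length. The 11 were IAA1, IAA2, IAA3, IAA4, IAA7, IAA9, IAA13, IAA14, IAA28, IAA29 and IAA32.

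IAA19 (AT3G15540, MSG2), a partner of ARF7 in hypocotyl growth, moved in opposite directions in wild type and ft. It measured 13.5, 13.7 and 9.20 CPM in untreated and 3.13, 5.44 and 5.21 CPM in treated wild type. In tfl1 it measured 7.86, 7.30 and 7.19 CPM against 9.38, 12.8 and 9.43 CPM, and in ft 9.59, 9.59 and 8.56 CPM against 20.7, 16.4 and 18.2 CPM. Treated libraries thus lay below untreated ones in the wild type and above them in both mutants, with no overlap. The log2 changes were -1.44 ± 0.22 in wild type (adjusted p = 7.13e-05), 0.32 ± 0.20 in tfl1 (adjusted p = 0.178) and 1.10 ± 0.19 in ft (adjusted p = 0.000695).

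Auxin response elements were counted in the window from 250 bases before to 50 bases after each RefSeq gene start, on both strands. The element TGTCTC was present in 12 of 29 Aux/IAA windows (41.4%) and 1 of 15 ARF windows (6.67%), against 13.7% of 20839 gene windows. TGTCGG, which shares its first 4 letters with TGTCTC, was present in 20.7% of Aux/IAA, 13.3% of ARF and 5.64% of all windows. The G-box CACGTG, a binding sequence of the light-regulated PIF factors, was present in 5 Aux/IAA windows (17.2%) and 8.69% of all, and CACATG in 24.1% and 12.8%. Of the 12 Aux/IAA genes with TGTCTC, 7 fell in the wild type, and of the 17 without it 14 fell (33.4% of all genes). The genes with TGTCTC include IAA15, IAA20, IAA31 and IAA34, which averaged at most 0.392 CPM per kb and could hardly be called. Of those without it, IAA33 was as low, so the groups differ in count depth. The window of IAA19 held 3 copies of TGTCTC, 1 of CACGTG and, next to the first TGTCTC, 1 of CACATG on the other strand; the first 4 are shown with the element in capitals because this gene changed sign between genotypes.
IAA19 TGTCTC, chr3:5263807-5263832, plus strand: accaaacttaTGTCTCtcatgtgacc
IAA19 TGTCTC, chr3:5263846-5263871, plus strand: tcagttgaccTGTCTCtgcccccact
IAA19 TGTCTC, chr3:5263863-5263888, plus strand: gcccccacttTGTCTCcccacacaaa
IAA19 CACGTG, chr3:5263921-5263946, plus strand: caaatgactcCACGTGtcgatattgg
The printed flanks of the last 2 TGTCTC copies overlap, but the copies do not. These matches describe the letters in the window and nothing about which factor was bound.

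**Figure D4:**
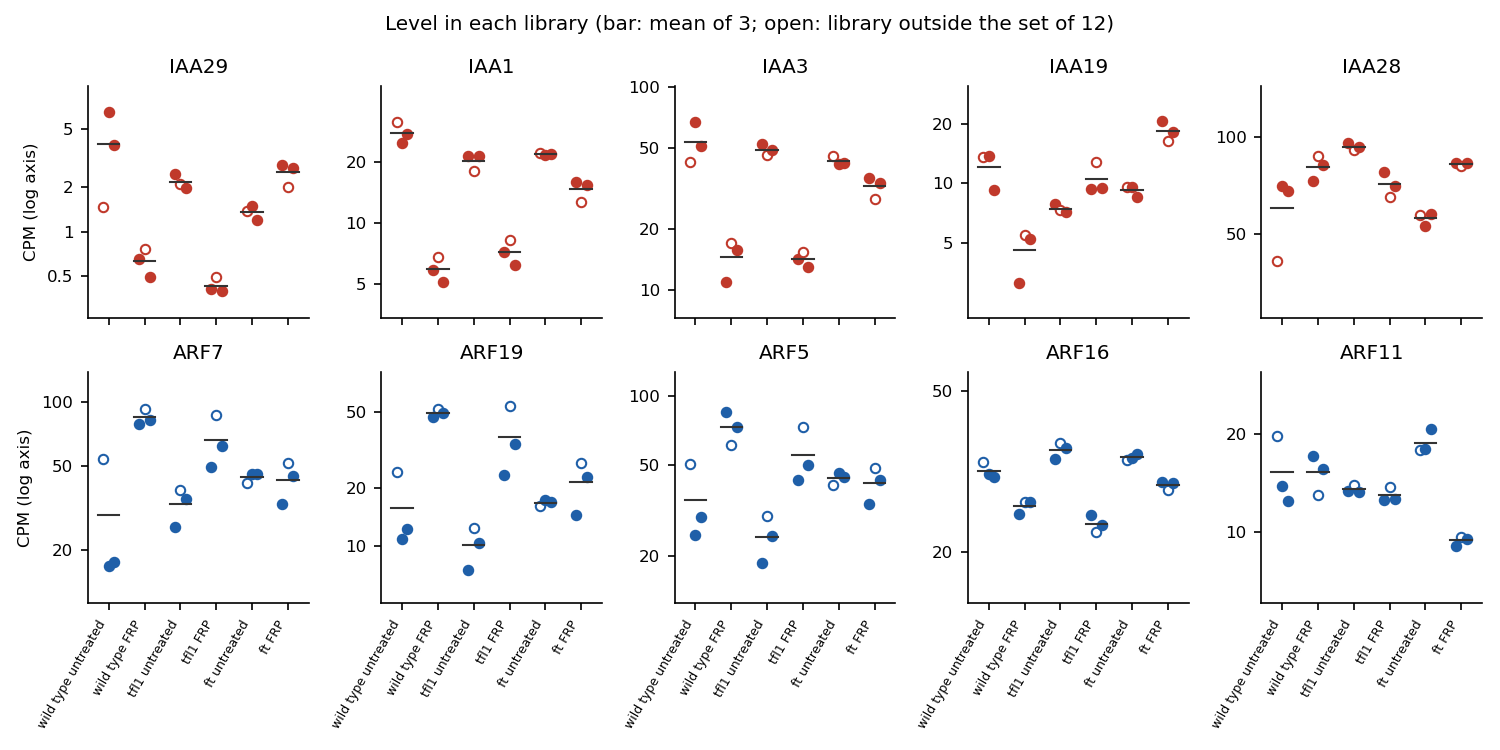
Level of 10 members in each of the 18 libraries (CPM, log axis; bar, mean of 3; open points, libraries outside the set of 12). IAA1 and IAA3 lie lower after FRP in wild type and tfl1, IAA19 lies lower in wild type and higher in both mutants, and ARF7 and ARF19 lie higher in wild type and tfl1, with untreated wild-type replicate 1 above the other untreated wild-type libraries for ARF7 (53.8 CPM against 16.7 and 17.6 CPM).

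The Aux/IAA transcripts that were most abundant per length moved by small steps. IAA9 and IAA27 averaged 272 and 210 CPM per kb over the 18 libraries, ahead of IAA8 at 176 CPM per kb, and IAA15 and IAA34 were lowest at 0.23 CPM per kb. IAA9 went from 544, 732 and 712 CPM to 453, 496 and 482 CPM in the wild type (log2 fold change -0.63 ± 0.06, adjusted p = 1.41e-06). In tfl1 it fell by -0.36 ± 0.06 (adjusted p = 0.000242), and in ft the value was -0.01 ± 0.06 (adjusted p = 0.937). IAA27 measured 170, 344 and 318 CPM against 355, 408 and 375 CPM in the wild type, where its log2 fold change of 0.14 ± 0.06 was not called. It rose in ft by 0.46 ± 0.06 (adjusted p = 0.000154), from 214, 217 and 219 CPM to 292, 303 and 305 CPM.

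IAA28 (AT5G25890), a repressor of lateral root initiation, also departed from the family. It measured 96.1, 90.9 and 93.5 CPM in untreated and 78.1, 65.3 and 70.6 CPM in treated tfl1, a log2 fold change of -0.35 ± 0.08 (adjusted p = 0.00187). In ft it rose from 57.5, 52.9 and 57.6 CPM to 83.0, 81.6 and 83.1 CPM, a log2 fold change of 0.59 ± 0.08 (adjusted p = 0.000137). Wild-type values were 41.3, 70.8 and 68.2 CPM against 73.1, 87.7 and 82.2 CPM, where all treated libraries were higher but the fold change of 0.16 ± 0.08 was not called (adjusted p = 0.0768). The decrease in tfl1 lost its call when tfl1 untreated replicate 1 or 3 or treated replicate 3 was left out, with adjusted p up to 0.016, and with length and GC trends removed the value was 0.06.

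Of the 23 canonical members, 19 were called lower in the wild type, where 33.4% of all genes were, with a median of -0.97. Of the 6 members without an intact degron core, IAA30 and IAA32 fell, by 1.13 and 1.70 on the log2 scale, IAA33 rose, and the median was 0.41. IAA20, IAA31, IAA33 and IAA34 averaged less than 0.5 CPM per kb and could hardly be called. The groups with and without the core thus differ in count depth, and a link of the response to the degron was not tested. The untreated wild-type libraries held 2, 1 and 3 counts of IAA33 (AT5G57420), and the treated ones 11, 8 and 14. Every untreated library of any genotype held fewer than 10 counts of IAA33. It thus passed the filter on low counts only through treated libraries, which favours a rise. In tfl1 it had 5, 7 and 8 counts untreated and 21, 12 and 24 treated, and its adjusted p was 0.00288. IAA33 was the only Aux/IAA gene called higher in wild type or tfl1, and these calls are no support for a rise. For IAA32 an overlapping gene covers 44.2% of the exonic bases.

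Among the ARFs, the activators of class A (ARF5, ARF6, ARF7, ARF8 and ARF19) all rose in wild type and tfl1. Of all genes, 33.0% rose in the wild type, with a larger share among genes of the ARF length range. In tfl1, 10 ARF genes rose and 2 fell, where 24.6% and 21.5% of all genes did. The family median there was 0.58 beside 0.52 for the genes of their length. ARF7 (AT5G20730, NPH4), which drives tropic growth, measured 53.8, 16.7 and 17.6 CPM in untreated and 78.8, 92.9 and 82.5 CPM in treated wild type. In tfl1 it measured 25.7, 38.3 and 34.8 CPM against 49.4, 87.3 and 62.1 CPM. The groups did not overlap, but untreated wild-type replicate 1 lay well above the other untreated wild-type libraries. On the log2 scale it rose by 2.24 ± 0.17 in wild type (adjusted p = 2.73e-07), 1.53 with that library and the other 5 included, and 0.85 with the length trend removed. In tfl1 it was 0.88 ± 0.16 (adjusted p = 0.000477), and it missed the threshold without untreated replicate 1 or treated replicate 3 (adjusted p up to 0.00842), with all 18 libraries (1.01, adjusted p = 0.023) and with the length trend removed (0.08, adjusted p = 0.378).

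ARF19 (AT1G19220), the close paralog of ARF7, measured 24.3, 10.8 and 12.2 CPM in untreated and 47.1, 51.6 and 49.2 CPM in treated wild type. In tfl1 it went from 7.51, 12.3 and 10.3 CPM to 23.5, 54.0 and 34.1 CPM. The treated libraries were higher in both genotypes without overlap, with log2 fold changes of 2.07 ± 0.22 (adjusted p = 3.72e-06) and 1.70 ± 0.22 (adjusted p = 4.63e-05). In ft the value was 0.12 ± 0.21 (adjusted p = 0.676). ARF5 (AT1G19850, MONOPTEROS) measured 50.4, 24.6 and 29.7 CPM in untreated and 85.0, 60.7 and 72.8 CPM in treated wild type, and 18.6, 29.8 and 24.4 CPM against 43.0, 73.04 and 50.03 CPM in tfl1. It rose by 1.54 ± 0.15 (adjusted p = 1.91e-06) and 1.12 ± 0.15 (adjusted p = 6.17e-05) on the log2 scale. In ft it measured 40.6, 46.1 and 44.05 CPM against 33.8, 48.6 and 42.9 CPM, where the groups overlapped (-0.23 ± 0.15, adjusted p = 0.217). With the length trend removed, ARF5 and ARF19 kept 0.46 and 0.72 in the wild type and 0.50 and 0.91 in tfl1.

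The miR167 targets ARF6 and ARF8, which promote flower maturation, were the class A members whose wild-type rise was lost with the length trend removed. ARF6 measured 188, 116 and 115 CPM in untreated and 265, 269 and 265 CPM in treated wild type (log2 fold change 1.20 ± 0.07, adjusted p = 5.72e-08). ARF8 (AT5G37020) measured 106, 92.8 and 89.3 CPM against 157, 164 and 163 CPM (0.82 ± 0.06, adjusted p = 3.31e-07). With the length trend removed ARF6 stood at -0.06 and ARF8 turned to -0.26 ± 0.07 (adjusted p = 0.00324) in the wild type, and in tfl1 they stood at -0.18 and 0.02, neither called. ARF8 was 1 of 2 ARF genes that rose in ft, from 101, 102 and 98.6 CPM to 124, 135 and 127 CPM (0.32 ± 0.06, adjusted p = 0.0017).

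Class B, the ARFs regarded as repressors, rose in 6 of 7 cases in the wild type (ARF11 excepted) and in 5 of 7 in tfl1. Of all genes 33.0% and 24.6% rose, and in the wild type the share was larger among genes of the ARF length range. ARF2 (AT5G62000), which limits organ size and has the highest ARF level at 62.3 CPM per kb, measured 221, 103 and 107 CPM in untreated and 371, 354 and 365 CPM in treated wild type. It rose by 1.81 ± 0.13 on the log2 scale (adjusted p = 1.71e-07), with no overlap, and by 0.67 ± 0.12 in tfl1 (adjusted p = 0.000603), where it missed the threshold with all 18 libraries and stood at -0.01 with the length trend removed. ARF4, an organ polarity factor, measured 90.8, 80.0 and 74.8 CPM against 208, 219 and 214 CPM in the wild type and 81.0, 90.4 and 82.8 CPM against 200, 224 and 210 CPM in tfl1. Its replicates were tight and did not overlap between treatments, with log2 fold changes of 1.45 ± 0.07 (adjusted p = 1.16e-08) and 1.32 ± 0.06 (adjusted p = 3.44e-08). ARF3 (ETTIN), its partner in polarity, rose in all 3 genotypes, by 0.89 ± 0.07, 0.54 ± 0.06 and, in ft, 0.35 ± 0.06 (adjusted p = 0.00126). With the length trend removed the wild-type values were 0.62 for ARF2, 0.52 for ARF4 and 0.18 for ARF3, and the ARF3 call was lost in wild type (adjusted p = 0.0132) and in tfl1 (0.15, adjusted p = 0.0344).

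No member of class C, the miR160 targets, was called higher in any genotype. ARF16 (AT4G30080) measured 33.3, 31.1 and 30.6 CPM in untreated and 24.8, 26.5 and 26.5 CPM in treated wild type, and 33.9, 37.1 and 36.0 CPM against 24.7, 22.4 and 23.3 CPM in tfl1. It fell in both, by -0.26 ± 0.07 (adjusted p = 0.00393) and -0.54 ± 0.07 (adjusted p = 2.96e-05), with no overlap. ARF10 (AT2G28350) fell in tfl1, from 56.4, 52.4 and 53.8 CPM to 46.8, 49.7 and 46.0 CPM (-0.25 ± 0.06, adjusted p = 0.00311), and its wild-type value was -0.13. These decreases were small. ARF16 missed the threshold in the wild type in 10 of the 12 fits that left out 1 library (adjusted p up to 0.0339) and by DESeq2, and ARF10 missed it in tfl1 in 4 of them and with all 18 libraries. ARF17 measured 18.05, 21.6 and 23.9 CPM against 21.1, 21.4 and 20.6 CPM in the wild type, and its log2 fold changes lay between -0.13 and -0.02 in the 3 genotypes. With the length trend removed all 3 class C genes were called lower in wild type (29.4% of all genes), with a median of -0.86, and their median in tfl1 was -0.65. The 7 precursor genes of miR160 and miR167 were not analysed here.

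ARF2, ARF3 and ARF4 are also targets of small RNAs made from the TAS3 transcript. TAS3 measured 28.4, 43.4 and 52.2 CPM in untreated and 29.7, 29.5 and 30.2 CPM in treated wild type, where it fell by -0.67 ± 0.11 (adjusted p = 0.000122) though untreated replicate 1 overlapped the treated libraries. It rose in tfl1, by 0.79 ± 0.11 (adjusted p = 5.81e-05), and in ft, by 0.83 ± 0.11 (adjusted p = 0.000118). TAS3B rose in wild type and ft, by 0.87 ± 0.18 and 1.45 ± 0.18, with 0.01 ± 0.17 in tfl1. The 3 TAS3 genes were the small RNA precursors tested.

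In ft, few members were called. There 4 Aux/IAA genes rose (IAA12, IAA19, IAA27 and IAA28) and IAA1 fell, where 12.8% of all genes rose and 12.6% fell, and the family median was 0.22 beside 0.06 for genes of the same length range. IAA12 (BODENLOS), the partner of MONOPTEROS in the embryo, went from 39.8, 37.2 and 38.0 CPM to 57.3, 50.6 and 51.7 CPM (0.53 ± 0.07, adjusted p = 0.000156), and its wild-type value was -0.48 ± 0.07 (adjusted p = 6.2e-05). That wild-type call was lost with all 18 libraries (-0.32, adjusted p = 0.0521) and with the length trend removed (-0.19, adjusted p = 0.0125), and untreated replicate 1 at 35.9 CPM lay below the treated libraries at 42.0, 39.2 and 42.5 CPM. Among the ARFs, ARF3 and ARF8 rose and ARF11 fell, with a family median of -0.02 beside -0.21 for genes of their length. ARF11 (AT2G46530) dropped from 17.9, 17.9 and 20.6 CPM to 9.10, 9.69 and 9.53 CPM (-1.05 ± 0.09, adjusted p = 9.84e-06). In the wild type it measured 19.6, 13.9 and 12.5 CPM untreated against 17.1, 13.03 and 15.6 CPM treated, and the groups overlapped. The ft calls rested on few libraries. The Aux/IAA count of 5 became 3 without ft untreated replicate 2 or 3 or treated replicate 1 and 8 without untreated wild-type replicate 2 or 3, and the ARF count of 3 became 1 without ft untreated replicate 2 or 3 or treated replicate 3. The calls of IAA1, IAA19, ARF3 and ARF8 were each lost in 3 or 4 of the 12 fits.

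In the fit to 18 libraries, 2 Aux/IAA genes (IAA1 and IAA19) and 3 ARF genes were called in ft (11.9% of all genes), and 10 and 9 in tfl1 (35.6%). Replicates could also be read without a model, from all 18 libraries. In the wild type all 3 treated libraries lay below all 3 untreated ones for 18 of 29 Aux/IAA genes, against 31.8% of all tested genes, and above them for 10 of 15 ARF genes, against 30.7%. In tfl1 the counts were 17 Aux/IAA genes below (34.9% of all genes) and 10 ARF genes above (36.2%). In ft 11 Aux/IAA genes lay above (28.6%) and 5 below (30.4%), the latter being IAA1, IAA2, IAA3, IAA4 and IAA32.

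**Figure D5:**
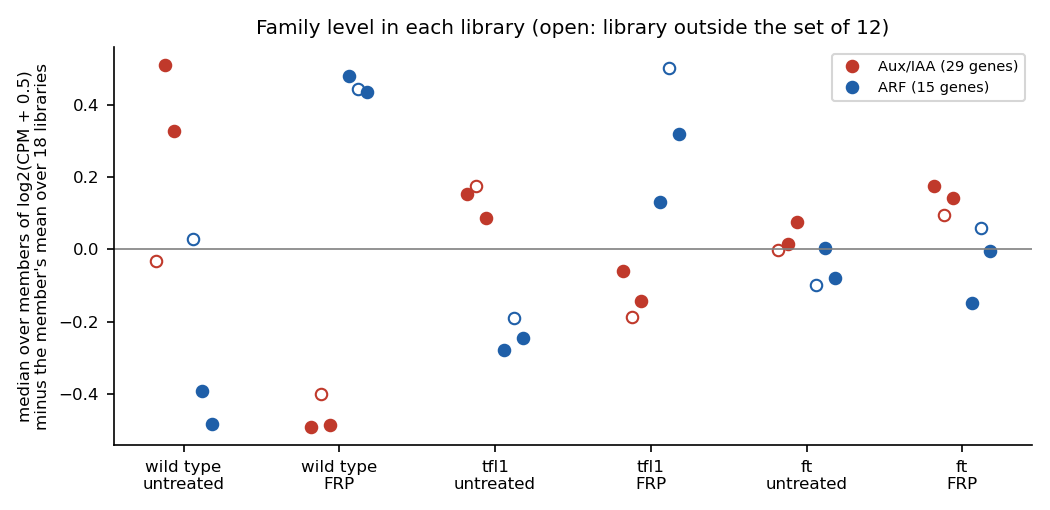
Family level in each library, as the median over members of log2(CPM + 0.5) minus each member's mean over the 18 libraries (Aux/IAA red, ARF blue; open points, libraries outside the set of 12). In the wild type the Aux/IAA median lay at -0.03, 0.51 and 0.33 untreated and at -0.49, -0.40 and -0.49 after FRP, and untreated wild-type replicate 1 is the open point nearest to 0 for both families.

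Whether FRP acted differently between genotypes was asked with the interaction of genotype and treatment. The comparisons of wild type and of tfl1 with ft share the ft libraries. Relative to ft, the wild-type response was lower for 20 Aux/IAA genes and higher for 12 ARF genes, where 29.2% of genes were called in each direction. Among genes of the Aux/IAA length range 38.2% were lower, and among genes of the ARF length range 73.6% were higher. The differences were -4.23 ± 0.40 for IAA29 (adjusted p = 2.71e-06), -2.54 ± 0.29 for IAA19 (adjusted p = 9.15e-06), 2.47 ± 0.23 for ARF7 (adjusted p = 2.53e-06) and 1.95 ± 0.31 for ARF19 (adjusted p = 0.000122). With all 18 libraries IAA29 and IAA19 kept their calls, at -3.54 and -2.40, whereas ARF7 (1.57, adjusted p = 0.014) and ARF19 (1.30, adjusted p = 0.0229) did not, and 16 Aux/IAA and 5 ARF genes were called in all (31.1% of all genes). Once the length trend was removed, ARF7 stood at 0.86 and was called, and ARF19 at 0.38 was not (adjusted p = 0.0981).

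The tfl1 response differed from that of ft in the same directions. It was lower for 14 Aux/IAA genes (19.8% of all genes) and higher for 8 ARF genes (20.5%), where 54.4% of genes of the ARF length range were higher. The largest differences under the naming rule were -3.5 ± 0.42 for IAA29 (adjusted p = 4.92e-05), -1.60 ± 0.21 for IAA3 (adjusted p = 7.05e-05), 1.58 ± 0.31 for ARF19 (adjusted p = 0.00104) and 1.35 ± 0.21 for ARF5 (adjusted p = 0.000246). In 18 libraries IAA29 and IAA3 remained called, ARF19 and ARF5 were not (adjusted p = 0.0142 and 0.0126), nor were they with the length trend removed (0.57, adjusted p = 0.0249, and 0.51, adjusted p = 0.00975), and the counts were 8 Aux/IAA genes and 3 ARF genes (17.9% of all genes).

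Between tfl1 and wild type, 12 Aux/IAA genes had a higher response in tfl1 and IAA28 a lower one, where 13.9% of genes were called in each direction. IAA19 differed by 1.76 ± 0.30 (adjusted p = 0.000596), IAA17 by 1.58 ± 0.13 (adjusted p = 7.46e-06) and IAA28 by -0.51 ± 0.11 (adjusted p = 0.00267). The response of ARF1, ARF2, ARF6 and ARF7 was lower in tfl1, by -1.35 ± 0.23 for ARF7 (adjusted p = 0.000674) and -1.14 ± 0.18 for ARF2 (adjusted p = 0.000365). With untreated wild-type replicate 1 and the other 5 libraries included, 2 Aux/IAA genes were called (4.75% of all genes), among them IAA19 at 1.90, while IAA17 at 1.34 (adjusted p = 0.00653) and IAA28 at -0.82 (adjusted p = 0.0146) were not. ARF7 then stood at -0.52 (adjusted p = 0.496), ARF2 at -0.64 (adjusted p = 0.234), and no ARF gene was called, with 2 of 15 below an unadjusted p of 0.05. Leaving out tfl1 untreated replicate 3 from the set of 12 took the Aux/IAA count from 13 to 8.

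The genotypes also differed before treatment in the set of 12. In untreated tfl1, IAA28 was higher than in the wild type by 0.45 ± 0.08 (adjusted p = 0.000858) and 5 Aux/IAA genes were lower (IAA5, IAA12, IAA17, IAA29 and IAA30), against 11.8% and 12.7% of all genes. IAA29 was lower by -1.23 ± 0.23 (adjusted p = 0.00153) and IAA17 by -0.99 ± 0.09 (adjusted p = 1.3e-05). ARF1, ARF2, ARF6 and ARF7 were higher, ARF7 by 0.82 ± 0.17 (adjusted p = 0.00262) and ARF2 by 0.64 ± 0.13 (adjusted p = 0.00183). In untreated ft 10 Aux/IAA genes were lower and 8 ARF genes higher than in the wild type (19.3% and 20.6% of all genes), with IAA29 at -1.96 ± 0.25 (adjusted p = 8.76e-05), IAA17 at -0.73 ± 0.08 (adjusted p = 4.76e-05), ARF7 at 1.41 ± 0.17 (adjusted p = 6e-05) and ARF2 at 1.08 ± 0.13 (adjusted p = 5.27e-05). These contrasts rest on 2 untreated wild-type libraries, whose slopes on log2 transcript length were -0.343 and -0.359. The slopes were -0.248 and -0.157 in untreated tfl1 and 0.0417 and 0.00716 in untreated ft. Relative to wild type, short genes thus tended to stand lower and long genes higher in the mutants. With the trend removed from the set of 12, IAA17, IAA29, ARF2 and ARF7 kept their calls in both contrasts, and IAA28 kept its call in tfl1. What part of the family counts follows this trend was not tested beyond the counts given in the last section. In tfl1 the Aux/IAA count of 6 became 3 without tfl1 untreated replicate 3, and the ARF count of 4 became 1 without that library or either wild-type library and 2 without ft untreated replicate 2. The ARF count of 8 in ft became 5 without ft untreated replicate 3. With all 18 libraries, no member of either family was called in either contrast, where 6.81% of all genes were called in tfl1 and 0.410% in ft. At an unadjusted p under 0.05 there were then 13 Aux/IAA and 3 ARF genes in tfl1, and 6 and 3 in ft.

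Partners of the families gave a mixed picture. All 5 TOPLESS co-repressor genes rose in wild type and tfl1, where 33.0% and 24.6% of all genes rose. They are 3902 to 4489 bases long, and the longest 10% of genes had medians of 1.41 in wild type and 0.83 in tfl1. TPR2, TPL and TPR3 stood at 2.2 ± 0.16, 2.10 ± 0.12 and 2.02 ± 0.19 on the log2 scale in the wild type. With the length trend removed, 4 of the 5 co-repressor genes were called in the wild type, where 28.2% of all genes were called higher and 29.4% lower. In ft none passed the threshold, with 0.30 ± 0.15, 0.32 ± 0.11 and -0.18 ± 0.18 for the same genes. Of the 6 auxin receptors, 4 were called higher in the wild type (TIR1, AFB1, AFB3 and AFB4, 33.0% of all genes) and AFB2 lower (33.4%). With all 18 libraries AFB1, AFB3 and AFB2 kept their calls, but TIR1 and AFB4 did not (0.17 and 0.06), and their untreated replicate 1, at 184 and 33.3 CPM, lay above the treated libraries. After removal of the length trend TIR1 stood at -0.11 and AFB4 was called lower (-0.39, adjusted p = 0.00128).

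Auxin-responsive outputs did not move as one group. GH3.5, an enzyme that conjugates auxin to amino acids, rose in all 3 genotypes, by 1.81 ± 0.12, 1.87 ± 0.12 and 0.90 ± 0.12 in wild type, tfl1 and ft, and GH3.6 rose in wild type and tfl1 by 0.49 ± 0.11 and 0.79 ± 0.11. GH3.2 and GH3.3 fell in ft, by -1.14 ± 0.14 and -0.80 ± 0.13, without overlap of treated and untreated libraries, though not with all 18 libraries in the fit (adjusted p = 0.014 and 0.0356). The 6 growth-promoting genes SAUR19 to SAUR24 were all called lower in the wild type (33.4% of all genes), and 5 of 6 rose in ft (12.8%). In all 18 libraries only SAUR19, SAUR20 and SAUR21 kept the wild-type call. Untreated wild-type replicate 1 lay below the treated libraries for SAUR22, SAUR23 and SAUR24 and among them for SAUR20. SAUR22 was at 0.239, 6.62 and 4.53 CPM untreated and 0.989, 0.812 and 0.431 CPM treated in the wild type, and at 1.43, 1.36 and 0.929 CPM against 6.26, 4.61 and 5.67 CPM in ft. SAUR20 and SAUR19 showed -3.36 ± 0.36 and -3.35 ± 0.37 in the wild type and 1.61 ± 0.27 and 1.76 ± 0.29 in ft. These SAUR genes are near-identical neighbours, so the split of reads among them is uncertain. Of the MONOPTEROS targets, LFY rose by 2.31 ± 0.30 in the wild type and 1.70 ± 0.20 in tfl1 (0.62 ± 0.27 in ft, not called), and ANT fell by -0.33 ± 0.06 in the wild type and -0.64 ± 0.06 in ft.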

How the data were processed

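Single-end RNA-seq was made from 18 samples, with 3 biological replicates in each of 6 conditions. Reads trimmed by Trimmomatic were mapped by the authors to TAIR10 with STAR 2.5.3a and counted per Araport11 gene with HTSeq 0.7.2 without regard to strand, and the deposited files hold raw counts for each sample. Overlapping genes on opposite strands therefore cannot be separated. Rows that name no gene held 7.98 to 10.9% of the reads and were left out. The authors also chose 2 replicates per condition after a principal component analysis, and the labels mark these 12 libraries.

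Here TMM scaling was applied and a model of the 6 conditions was fitted with the edgeR 4.0.16 quasi-likelihood test (R 4.3.3, limma 3.58.1), on the 12 libraries and, as an alternative, all 18. Genes needed at least 10 counts in at least 2 libraries (21277 and 21442 genes). P-values were adjusted by the Benjamini-Hochberg method over all of these genes, and a gene was called at an adjusted p of at most 0.005, the threshold in the study's methods. Fold changes are log2 values ± SE from the model, and CPM values are TMM-scaled. The members and gene lists were chosen with earlier results of these data known, so counts over a list are descriptions and no list was tested. Given in full were, for each comparison and family, up to 3 called members per direction (2 for the differences between genotypes) with the largest change and a mean count of at least 50, and ARF5, IAA19, IAA29, the most abundant members per length, any member whose call turned without the length trend and up to 3 partner genes per list that were called in at least 2 genotypes. Members outside that rule were named after their values were seen.

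Exonic length, GC content, overlaps and sequences came from the RefSeq TAIR10.1 annotation, which is not the Araport11 set used for counting, and 21193 of the tested genes had a length. Length trends were removed per library with a spline of 5 degrees of freedom. The fit was tested on simulated counts with known changes. Alternatives were other size factors, library totals, DESeq2 1.42.0, other filters and thresholds, a replicate block, and leaving out each of the 12 libraries. Plots were made in matplotlib 3.10.9 under Python 3.11.15.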

Additional observations from a re-analysis of the deposited data

Results flagged for a closer look

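The response to FRP differed between genotypes, by a test of the interaction itself, in the comparisons below. They share libraries with each other and were chosen by their size. Between wild type and ft, 20 Aux/IAA genes were lower and 12 ARF genes higher, where 29.2% of all genes were called in each direction and 73.6% of genes of the ARF length range were higher. The log2 differences were -4.23 for IAA29, -2.54 for IAA19, 2.47 for ARF7 and 1.95 for ARF19, and neither ARF7 nor ARF19 was called with all 18 libraries. Between tfl1 and ft, 14 Aux/IAA genes were lower (19.8% of all genes) and 8 ARF genes higher (20.5%, and 54.4% of genes of the ARF length range), with -3.5 for IAA29, -1.60 for IAA3, 1.58 for ARF19 and 1.35 for ARF5, where ARF19 and ARF5 were not called with all 18 libraries or with the length trend removed.

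Between tfl1 and wild type, 13 Aux/IAA and 4 ARF genes were called, where 13.9% of all genes were called in each direction, with 1.76 for IAA19, 1.58 for IAA17, -0.51 for IAA28, -1.35 for ARF7 and -1.14 for ARF2. With all 18 libraries this comparison gave 2 Aux/IAA genes and no ARF gene (4.75% of all genes), with 2 ARF genes at an unadjusted p under 0.05. With the length trend removed it gave 2 ARF genes, where 5079 of 21193 genes were called. The part of leaf tissue in these differences was not tested.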

How the results depend on the processing

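Counts are given for Aux/IAA and then ARF genes. The counts for FRP in wild type (22 and 12) and in tfl1 (12 and 12) and the Aux/IAA count for wild type minus ft (20) stayed within 1.5 times under the alternatives run, except where a 2-fold change was required.

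With at least a 2-fold change the counts were 14 and 7 in wild type, 7 and 3 in tfl1, 1 and 1 in ft, 4 and 4 for tfl1 minus ft, 6 and 2 for tfl1 minus wild type, 2 and 0 for untreated tfl1, and 1 and 2 for untreated ft. At an adjusted p of 0.05 they were 15 and 5 in ft, 8 ARF genes for tfl1 minus wild type, 15 and 7 for untreated tfl1 and 19 Aux/IAA genes for untreated ft. The share of all genes at these thresholds is not given here, so these counts cannot be read as results about the families. With all 18 libraries there were 2 Aux/IAA genes in ft, 5 ARF genes for wild type minus ft, 8 and 3 for tfl1 minus ft, 2 and 0 for tfl1 minus wild type, and 0 and 0 for untreated tfl1 and for untreated ft. Without untreated wild-type replicate 1 (17 libraries), and with only the groups compared, 9 Aux/IAA genes were called in ft. Of all genes, 5399 of 21429 and 5077 of 20584 were called in these fits.

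With the length trend removed there were 10 and 5 in ft, 2 ARF genes for tfl1 minus wild type and 11 Aux/IAA genes for untreated tfl1. Of all 21193 genes, 5528, 5079 and 5735 were called, in the same order. With length and GC trends removed there were 11 and 5 in ft, 7 ARF genes for wild type minus ft, and 8 and 5 for tfl1 minus ft. Of all 21193 genes, 5413, 9129 and 6056 were called. With the length trend removed from all 18 libraries there were 5 ARF genes in ft, 2 for wild type minus ft, 6 and 2 for tfl1 minus ft, 6 and 0 for tfl1 minus wild type, 2 ARF genes for untreated tfl1, and 0 and 0 for untreated ft. Of all 21354 genes, 3482, 4643, 3755, 1782, 2731 and 143 were called, in the same order. Directions turned under these trends. ARF8 went to -0.26, -0.40 and -0.11 in wild type (length, length and GC, length with 18 libraries) and to -0.039 in tfl1 (length and GC). ARF6 went to -0.062, -0.25 and -0.030 in wild type and -0.18, -0.25 and -0.18 in tfl1. ARF2 went to -0.012, -0.080 and -0.042 in tfl1, and with length and GC trends removed ARF3 was -0.017 in wild type and IAA28 was 0.064 in tfl1.

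The replicate numbers were treated as not pairing the samples, because the labels do not say whether they mark shared harvests. Deviations of same-numbered samples correlated between -0.563 and 0.482, which does not settle this, as length trends also enter these deviations. With a replicate block in the fit to 18 libraries there was 1 Aux/IAA gene in ft, 4 ARF genes for wild type minus ft, 5 and 2 for tfl1 minus ft, 1 and 0 for tfl1 minus wild type, and 0 and 0 for untreated tfl1 and for untreated ft. Of all 21442 genes, 2251, 5318, 3036, 922, 1270 and 62 were called, in the same order.

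Leaving out 1 of the 12 libraries gave 3 to 8 and 1 to 3 in ft, 8 to 13 Aux/IAA genes for tfl1 minus wild type, 3 to 6 and 1 to 4 for untreated tfl1, and 5 to 8 ARF genes for untreated ft. The shares of all genes in these fits are not given here. Of 732 values for named members, 676 kept their side of the threshold, 56 lost it and 0 turned. Library totals without TMM moved the median of all genes from -0.02 to 0.12 in wild type and from 0.02 to 0.12 in tfl1. The share of calls that were higher went from 53.4 to 63.5% in tfl1, from 50.9 to 65.3% for tfl1 minus ft, from 48.1 to 64% for untreated tfl1 and from 51.6 to 69.7% for untreated ft. The cause of these shifts was not tested. Members such as IAA15, IAA20, IAA31, IAA33 and IAA34 had too few counts for firm fold changes.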
